A study of Rattus norvegicus with 20 samples.

Results

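The dual-specificity MAP kinase phosphatases described here are Dusp1, Dusp4, Dusp5, Dusp6, Dusp7 and Dusp10, 6 genes of the 14217 named on the array. They were chosen by symbol with the values of the ethanol and water comparison in view, the Dusp1 difference among them, and every probe set annotated to exactly 1 of these symbols was used, which gave 9 probe sets of 31099. Dusp1 had 2 probe sets and Dusp6 had 3, and where a gene had several the one with the highest mean over all arrays is its main value. Tissue came from the amygdala's central nucleus in alcohol-preferring (P) rats, which are bred for high voluntary alcohol intake, and each animal had 1 Affymetrix array. The ethanol group was 10 P rats that had 15 and 30% ethanol available in adolescence, and the water group was 10 P rats that had only water. All 20 animals shared the line and the nucleus, and the labels give no sex, age at sampling, litter, intake or time since the last drink. The p-values below therefore measure the spread between these animals.

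Dual-specificity phosphatases remove phosphate from both the threonine and the tyrosine of the activation loop of MAP kinases and so switch them off. The kinases they act on are ERK, which growth factors and synaptic calcium activate, and the stress kinases JNK and p38. Several of the phosphatase genes are themselves induced by MAP kinase signalling and so form feedback loops. Dusp1, Dusp4 and Dusp5 encode nuclear enzymes, Dusp6 and Dusp7 encode cytoplasmic enzymes selective for ERK, and Dusp10 encodes an enzyme selective for JNK and p38. In neurons Dusp1 is known as an immediate early gene, one that stimulation switches on within minutes with no need for new protein.

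The promoters of Dusp1 and Dusp5 are shown because they hold letters that stimulus-responsive factors are known to bind. The levels of these genes also correlated among animals, but that call was lost without any of 14 of the 20 animals. A link between the letters and the levels was not tested. The windows run from 250 bases before to 50 bases after the start of the gene, 300 bases in all, from RefSeq on GRCr8, on the + strand. That of Dusp1 is chr10:17184603-17184902 and that of Dusp5 is chr1:262543524-262543823. In Dusp1 the capitals mark the cyclic AMP response element TGACGTCA and its 5-letter core TGACG, and in Dusp5 they mark 2 adjoining CArG boxes, the letters bound by serum response factor, and then the core read on the other strand as CGTCA.
Dusp1: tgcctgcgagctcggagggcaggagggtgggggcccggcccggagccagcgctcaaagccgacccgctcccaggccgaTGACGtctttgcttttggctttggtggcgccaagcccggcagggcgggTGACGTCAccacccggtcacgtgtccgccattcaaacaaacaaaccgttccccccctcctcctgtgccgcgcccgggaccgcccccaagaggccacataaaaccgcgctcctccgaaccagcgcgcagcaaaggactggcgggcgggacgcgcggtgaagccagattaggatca
Dusp5: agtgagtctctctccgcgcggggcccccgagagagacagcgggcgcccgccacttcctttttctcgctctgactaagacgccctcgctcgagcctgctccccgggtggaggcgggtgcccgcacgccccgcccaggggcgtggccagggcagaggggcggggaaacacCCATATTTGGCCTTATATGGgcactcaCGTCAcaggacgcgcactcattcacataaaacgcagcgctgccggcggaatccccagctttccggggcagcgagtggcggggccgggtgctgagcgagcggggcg

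The element TGACGTCA, searched on both strands, began 124 bases before the start of Dusp1 and occurred in 1.83% of 33469 promoter windows of this length. The core TGACG, searched on both strands, had 3 matches in the Dusp1 window, 2 of them inside the full element and the other beginning 172 bases before the start. It occurred in 21.2% of all windows, and at least 2 matches occurred in 4.96%. In Dusp5 the CArG boxes CCATATTTGG and CCTTATATGG began 82 and 72 bases before the start, and the core began 55 bases before it. A CArG box occurred in 1.64% of all windows, and 2 or more occurred in 7 windows, 0.0209% of them. The windows of Dusp6, Dusp7 and Dusp10 had 0 matches to any of these letters, which says nothing of the factors elsewhere. RefSeq windows matched 5 of the 6 genes, with Dusp4 the exception. A match is a run of letters and not a measured binding site.

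Values are the deposited log2 summaries per probe set, and array medians lay between 7.92 and 7.97. Ethanol animal 5 and water animals 15 and 18 correlated least with the other arrays, with mean correlations under 0.976, and were kept. A probe set was tested only if its mean was above a log2 value of 7.14, the 40th percentile, which left 18625. Of the 9 probe sets 6 passed, and those of Dusp4, Dusp10 and the second probe set of Dusp1 did not. Of 11 markers of the central amygdala on the array 10 were above that level in the mean, with Crh between 8.26 and 10.92 and Prkcd between 8.65 and 10.37 over the 20 animals, and Calcrl was below it. Marker means of neighbouring tissue and other cell types were not level between the groups. The mean of 11 striatal markers was 10.15 ± 0.37 in ethanol animals and 9.96 ± 0.30 in water animals, and that of 11 myelin markers was 12.29 ± 0.49 in ethanol animals and 12.64 ± 0.40 in water animals (SD, n = 10 each). All 11 striatal markers were higher and all 11 myelin markers lower in the mean of the ethanol group. The mean of 4 choroid plexus and ependymal markers was 7.77 ± 1.49 in ethanol animals and 9.18 ± 1.68 in water animals, with all 4 lower in the ethanol group, and the correlations of the main probe sets of the 6 Dusp genes with it lay between -0.09 and 0.22. Meningeal markers (6 of 6 lower) were at 8.0 ± 0.40 in ethanol animals and 8.36 ± 0.74 in water animals, and astrocyte markers (6 of 7 lower) at 12.40 ± 0.10 in ethanol animals and 12.53 ± 0.12 in water animals. By limma 0 genes of these 3 lists, the myelin list or the striatal list passed the adjusted threshold. At an unadjusted p under 0.05, 2 of 4 choroid plexus and ependymal, 0 of 6 meningeal and 2 of 7 astrocyte genes were lower. At the same threshold 4 of 11 myelin genes were lower and 1 of 11 striatal genes was higher. Over all probe sets 2393 of 18625 (12.8%) had such a p in either direction.

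Dusp1, on chromosome 10, had log2 values from 10.11 to 11.68 in ethanol animals with a median of 11.02, and from 10.06 to 11.01 in water animals with a median of 10.62. The groups overlapped, but 9 of 10 ethanol animals lay above the water mean and 5 lay above the highest water animal. The exception was ethanol animal 1, which had the lowest value of its group, while ethanol animal 5 had the highest of all. The means were 11.10 ± 0.44 in the ethanol group and 10.63 ± 0.28 in the water group (SD, n = 10 each). The log2 difference was 0.47 (SE 0.15), or 1.38-fold. Results of this contrast were known when the genes were chosen, so the difference is a description without a test. In bulk tissue, a change in the number of cells that hold a transcript and a change in the transcript per cell cannot be told apart.

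The second Dusp1 probe set, 1368147_at, lay in the dim range, where values are less certain. It ran from 5.91 to 7.21 in ethanol animals with a median of 6.67, and from 5.14 to 6.52 in water animals with a median of 6.14. In it 7 ethanol animals lay above the highest water animal, and ethanol animal 1 was again the lowest of its group. The log2 difference was 0.65 (SE 0.18). The probe sets of Dusp1 correlated at r = 0.60 over the 20 animals after the group means were removed.

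The Dusp1 difference was positive in each of the 3 runs of the accession order, a split that no label names as a batch. It was 0.20 in the first run and 0.61 in the second, with 4 animals per group in each, and 0.71 in the last, with 2 per group. Leaving out single animals moved it between 0.40, without ethanol animal 5, and 0.58, without ethanol animal 1. Striatal markers were higher in the ethanol group, and the Dusp1 value of an animal correlated with its striatal marker mean at r = 0.67 (n = 20, group means removed). With the striatal and cortical marker means as covariates the difference was 0.33 (SE 0.12), and with the myelin mean it was 0.41 (SE 0.17). The second probe set correlated with the striatal mean at r = 0.17, and with both region means as covariates its difference was 0.60 (SE 0.19).

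Dusp4, on chromosome 16, encodes a nuclear phosphatase of ERK and JNK, and its probe set was dim. Its values ran from 6.0 to 6.73 in ethanol animals with a median of 6.29, and from 5.98 to 6.53 in water animals with a median of 6.18. The groups overlapped almost fully, and the difference was 0.12 (SE 0.088). Dusp5, on chromosome 1, encodes the nuclear phosphatase specific for ERK. It ran from 6.68 to 7.59 in ethanol animals with a median of 7.31, and from 6.93 to 7.78 in water animals with a median of 7.35. Its difference was -0.08 (SE 0.12), and -0.17 (SE 0.12) with the myelin mean as a covariate or -0.17 (SE 0.11) with the striatal and cortical means. The lowest of all 20 values belonged to ethanol animal 1.

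Dusp6, on chromosome 7, encodes the cytoplasmic ERK phosphatase that growth factor signalling induces. Its main probe set ran from 9.49 to 10.45 in ethanol animals with a median of 10.23, and from 9.85 to 10.88 in water animals with a median of 10.10. The groups overlapped, and the difference was -0.09 (SE 0.13). Its size and sign moved with the setting. With the myelin mean as a covariate it was -0.26 (SE 0.11), with array quality weights 0.06 (SE 0.099), and without ethanol animal 5 and water animals 15 and 18 -0.0096 (SE 0.13). Ethanol animal 1 had the lowest value in each of the 3 Dusp6 probe sets, and water animal 15 the highest in 2 of them. The other probe sets had differences of -0.01 (SE 0.096) for 1387024_at and -0.10 (SE 0.14) for 1382778_at, and with the myelin mean -0.08 (SE 0.098) and -0.27 (SE 0.11).

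Dusp7, on chromosome 8, encodes a close cytoplasmic relative of Dusp6. It ran from 10.12 to 10.85 in ethanol animals with a median of 10.61, and from 10.46 to 11.03 in water animals with a median of 10.73. In the ethanol group 4 animals lay below the lowest water animal, and 0 lay above the highest. The difference was -0.17 (SE 0.095). It was -0.31 in the first run, -0.24 in the second and 0.24 in the last. The Dusp7 value of an animal correlated with its myelin marker mean at r = 0.61 (n = 20, group means removed), myelin markers were lower in the ethanol group, and with the myelin mean as a covariate the difference was -0.06 (SE 0.084). Dusp10, on chromosome 13, was the dimmest of the probe sets. It ran from 4.86 to 5.39 in ethanol animals with a median of 5.10, and from 4.93 to 5.29 in water animals with a median of 5.07, a difference of 0.03 (SE 0.066).

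**Figure D1:**
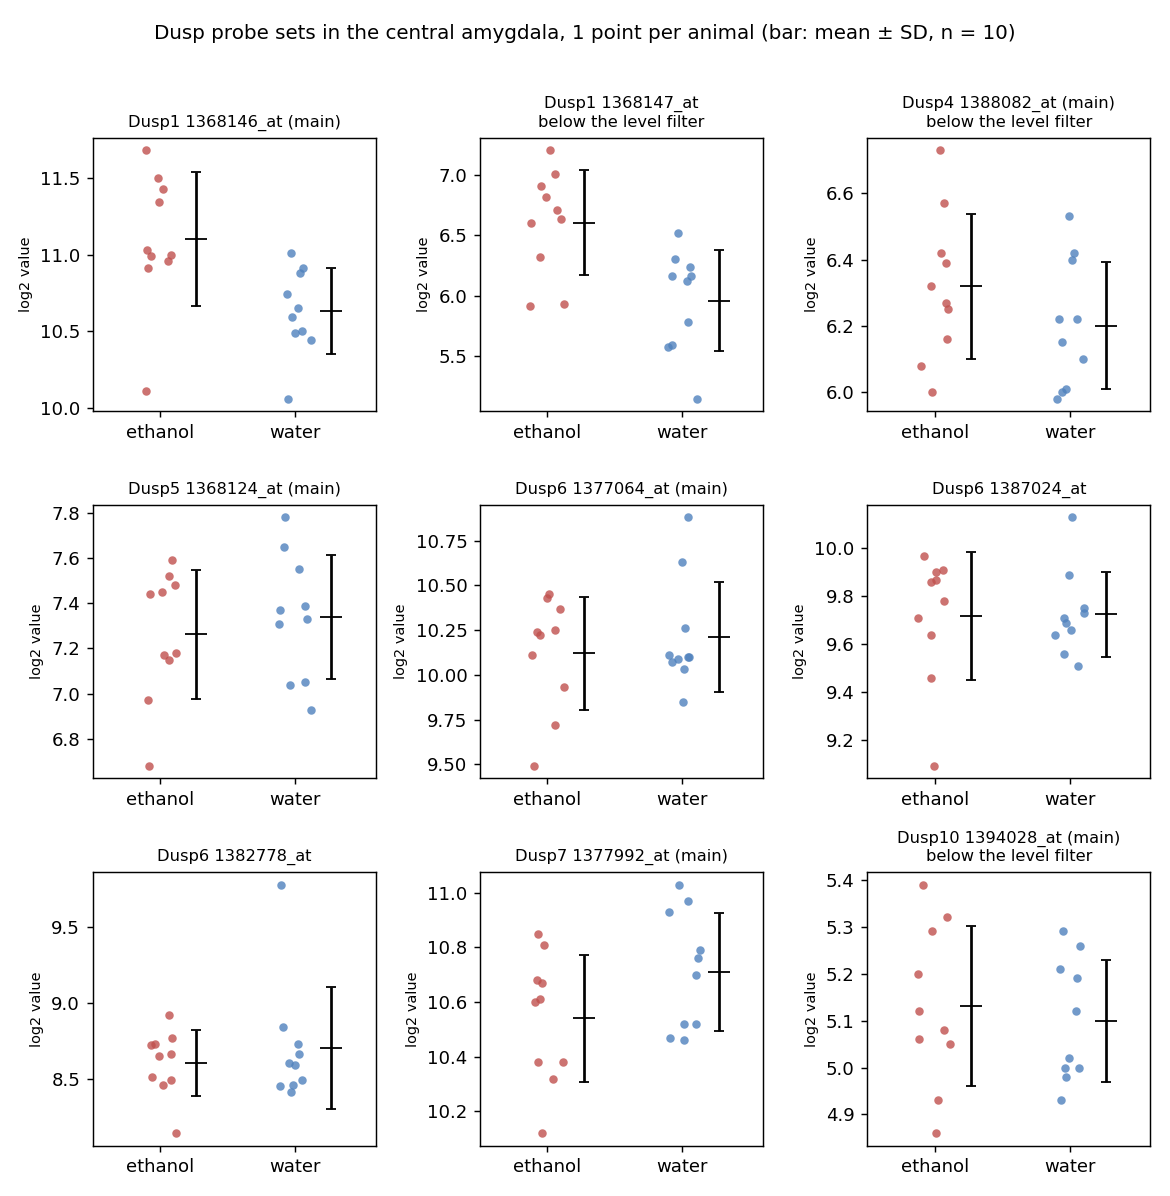
Log2 value (vertical axis, scaled to each panel) of the 9 Dusp probe sets in ethanol animals (left, red) and water animals (right, blue), 1 point per animal, with bars for the mean ± SD of 10 animals. In both Dusp1 panels most ethanol points lie above the water mean, with ethanol animal 1 the lowest of its group at 10.11 and 5.91. The groups overlap widely in Dusp4, Dusp5, Dusp6 and Dusp10.

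Over the whole table, limma called 4 of 18625 probe sets between ethanol and water at an adjusted p under 0.05, 0.0215% of those tested, and 0 of the 6 Dusp probe sets tested were among them. Without adjustment, 2393 probe sets (12.8%) had a p under 0.05, and with them 1 of the 6, the main one of Dusp1. Since this contrast was known when the genes were chosen, nothing is read from these counts.

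The rest of the pathway was described from 7 lists of genes. Among other dual-specificity phosphatases 12 genes were tested, with 6 higher and 6 lower in the ethanol group and 0 past the adjusted threshold. The smallest unadjusted p-values belonged to Dusp15, with a difference of -0.23 (SE 0.11), and Dusp3, which acts on ERK and JNK, with -0.19 (SE 0.10). Of 6 other phosphatases of MAP kinases 4 were higher. Among them were Ptpn5, the striatal-enriched tyrosine phosphatase that acts on ERK and p38, at 0.15 (SE 0.086), and Ppm1a at 0.20 (SE 0.11). Among 16 genes of the ERK cascade 9 were higher and 7 lower. Nras, a Ras GTPase that starts the cascade, was at -0.11 (SE 0.042), and Rasgrp1 was at 0.39 (SE 0.20). Of 13 genes of the JNK and p38 cascades 8 were higher, and 3 of these had an unadjusted p under 0.05, beside 7.37% of all probe sets that were higher at that threshold. The p38 kinase Mapk11 was at 0.20 (SE 0.065, limma adjusted p = 0.284), and the JNK Mapk9 was at 0.30 (SE 0.093, limma adjusted p = 0.268). Neither passed the adjusted threshold. Sprouty and Spred genes, which encode feedback inhibitors of Ras signalling, had 4 of 5 higher, with Spry2 at 0.11 (SE 0.080) and Spry3 at 0.13 (SE 0.072). The 7 ETS and serum response factors had 4 higher and 3 lower, with Elk4 at -0.14 (SE 0.062) and Elk3 at -0.14 (SE 0.088). None of the 110 probe sets of these lists passed the adjusted threshold. Of the 110, 10 had an unadjusted p under 0.05, beside 2393 of 18625 (12.8%) over all probe sets tested.

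Of 16 immediate early genes tested 8 were higher and 8 lower in the ethanol group, with a median difference of 0.0014 beside 0.016 over all probe sets. Dusp1, which is not on this list, was at 0.47, and the list included Arc, a regulator of synaptic receptors, at 0.36 (SE 0.23) and Fos, a subunit of AP-1, at 0.24 (SE 0.22). The zinc finger factors Egr1 and Egr2 were at -0.27 (SE 0.15) and -0.52 (SE 0.40), and Nr4a3 was at -0.48 (SE 0.24). Ier2 was at 0.34 (SE 0.092), with a limma adjusted p of 0.239. The mean of the 16 genes was 9.61 ± 0.42 in ethanol animals and 9.65 ± 0.26 in water animals (SD, n = 10 each). When this mean was added as a covariate, an alternative added once the data had been seen, the Dusp1 difference was 0.50 (SE 0.11).

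The covariation of the Dusp genes among animals was examined after the mean of each group was removed, so that it does not use the difference between ethanol and water. For Dusp1 the nearest genes by Pearson's r over the 20 animals were Gadd45g, a stress-inducible gene whose protein activates a kinase upstream of p38, with r = 0.89, and Arc and Fos, with r = 0.86 each. Among ethanol animals r was 0.93 for Gadd45g, 0.93 for Arc and 0.91 for Fos, and among water animals it was 0.81, 0.74 and 0.74. These genes were picked for their r, so the limma p-values adjusted over 18624 probe sets stand beside them, 0.000591 for Gadd45g and 0.000989 for both Arc and Fos.

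Of all 18624 probe sets tested 89, or 0.478%, passed the adjusted threshold with Dusp1, 67 of them positive (0.36%) and 22 negative. Of the 16 immediate early genes tested 7 passed, all positive. Beside Fos and Arc these were the nuclear receptor Nr4a1 (r = 0.83, limma adjusted p = 0.00655), Egr2 (0.81, p = 0.00885), the AP-1 gene Junb (0.81, p = 0.0129), Egr4 (0.78, p = 0.0243) and Egr1 (0.75, p = 0.0325). The median r of the list was 0.53, beside 0.016 over all probe sets. Its other members lay between r = -0.15 for Ier3 and r = 0.63 for Fosb, with Jun at -0.04 and Nr4a2 at -0.02, and none of these passed. By rank the relation was weaker in part, with Spearman's rho of 0.78 for Arc (permutation p = 0.00023), 0.74 for Fos (permutation p = 0.00057) and 0.51 for Egr1 (permutation p = 0.0213), each of 16 such relations computed. Pearson's r had permutation p-values of 4e-05 for Arc, 5e-05 for Fos and 0.00199 for Egr1.

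**Figure D2:**
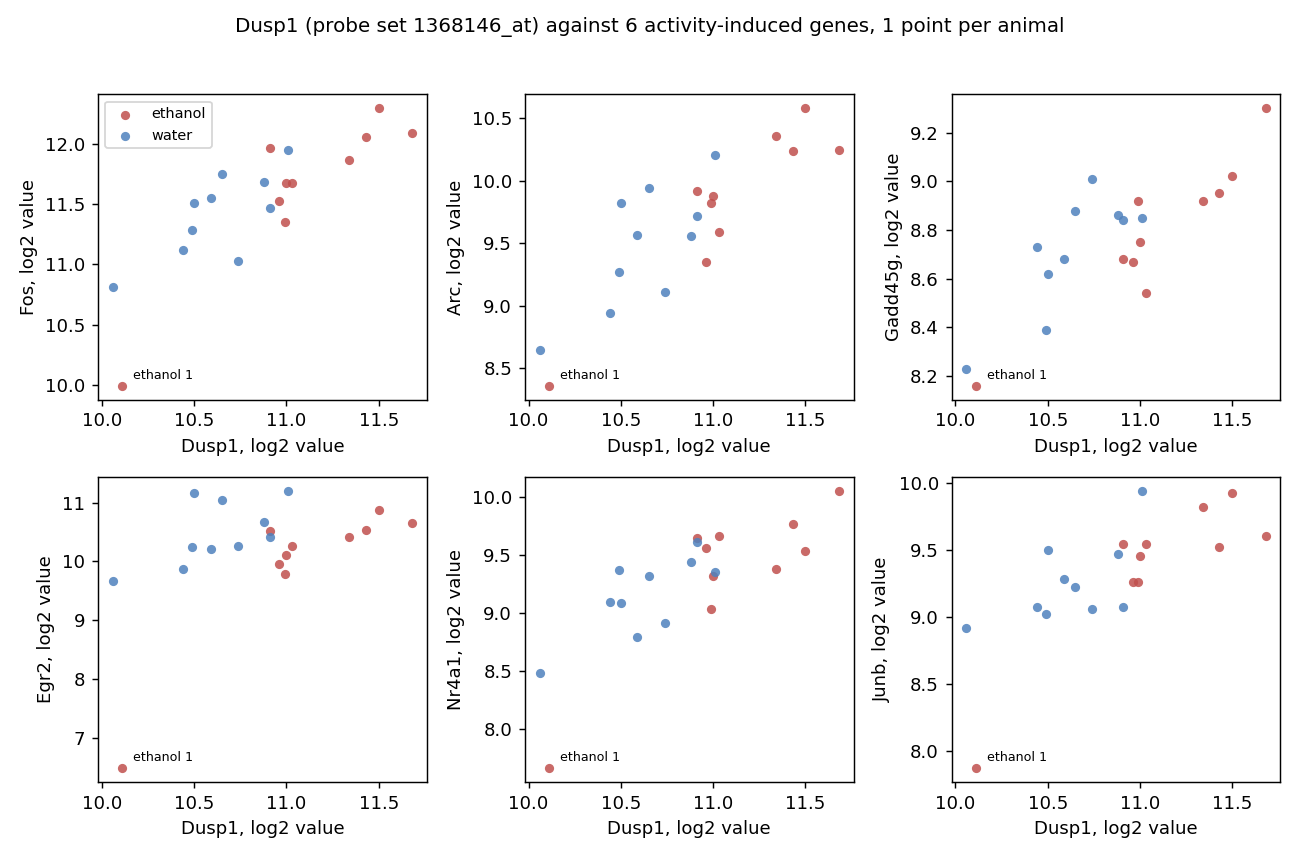
Log2 value of 6 genes (vertical axes) against the log2 value of Dusp1 (horizontal axis), 1 point per animal, ethanol in red and water in blue. Each gene is higher where Dusp1 is higher in both groups, and ethanol animal 1, labelled, is at the low end of every panel, with Egr2 at 6.49.

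The calls with Dusp1 rested on ethanol animal 1. Its mean of the 16 immediate early genes was 8.47, beside a lowest value of 9.32 among water animals, and its Dusp1, Fos, Arc, Egr1, Egr2, Egr4, Nr4a1 and Junb values were each the lowest in its group. Its striatal marker mean was 9.36 and its cortical one 8.47, both the lowest of the ethanol group, and its myelin mean of 12.92 was the highest of that group. Their part in its values was not tested. Without it 0 probe sets and 0 immediate early genes passed with Dusp1, at r = 0.74 for Fos (limma adjusted p = 0.619), 0.76 for Arc (0.329) and 0.83 for Gadd45g (0.0630). Leaving out this animal and ethanol animal 5, the animals farthest from the median of Dusp1, left r = 0.78 for Arc, 0.74 for Fos and 0.48 for Egr1. Leaving out any other animal left 5 to 7 of the immediate early genes called. The total over all probe sets moved more, to 11 without ethanol animal 5, 26 without ethanol animal 4, 46 to 59 without water animal 12, 13 or 17 or ethanol animal 6, 8 or 9, 149 without water animal 15 and 382 without water animal 21.

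Within the first run Dusp1 correlated with Arc at r = 0.97 and with Fos at r = 0.97, and within the second at 0.75 and 0.53 (n = 8 each). The last run, with 4 animals, was too small. With the striatal and cortical means as covariates Arc (limma adjusted p = 0.00345) and Fos (limma adjusted p = 0.0177) remained called and the count of immediate early genes was 2. With the myelin mean it was 7. The second, dim probe set of Dusp1 gave r = 0.54 with Fos, 0.46 with Arc and 0.40 with Gadd45g over the 20 animals. Among ethanol animals these were 0.78, 0.65 and 0.39, and among water animals 0.14, 0.20 and 0.42.

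Some markers of the region and of the neighbouring striatum also passed with Dusp1. Of 11 striatal markers tested these were Ppp1r1b and Adcy5, which encode signalling proteins of striatal medium spiny neurons (r = 0.78 each, limma adjusted p = 0.0221 and 0.0286). Of 10 central amygdala markers tested it was the opioid precursor Penk (r = 0.74, limma adjusted p = 0.0348). The other markers of these lists did not pass. Among 16 genes of the ERK cascade Rasgrf1, a calcium-activated exchange factor for Ras, was the single call, and it was negative (r = -0.73, limma adjusted p = 0.0499). Of the other dual-specificity phosphatases and the JNK and p38 genes, 0 passed with Dusp1.

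Promoter windows were at hand for 6 of the 8 genes that are named above with Dusp1 as Gadd45g or as called immediate early genes. The core TGACG occurred in 5 of these 6, beside 21.2% of all windows. It had 4 matches in Nr4a1, 2 each in Egr1 and Egr4, 1 each in Egr2 and Junb, and 0 in Gadd45g. A CArG box occurred in 2 of them, Egr1 and Egr2, beside 1.64% of all windows. Windows of immediate early genes not called with Dusp1 were not searched, so a link of these letters to the covariation was not tested. The full element TGACGTCA seen in Dusp1 was in none of the 6.

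Between the 6 Dusp genes themselves, 15 pairs were tested over 20 animals by permutation within groups, with p-values adjusted over the pairs. Dusp1 and Dusp5 were the single pair that passed, with r = 0.65 (permutation p = 0.00259, adjusted 0.0389) and Spearman's rho = 0.59 (permutation p = 0.00968, adjusted 0.145). Among ethanol animals r was 0.86 and among water animals 0.33, and the difference between the groups did not pass a permutation test (p = 0.109, adjusted 0.910). Over all 15 pairs 0 differed between groups, also at an unadjusted p under 0.05. Within the first run r was 0.86 and within the second 0.80 (n = 8 each). Without ethanol animals 1 and 5, the farthest from the median of Dusp1, r was 0.46 (permutation p = 0.0663), so the relation rests in part on them. The adjusted call was lost without any of 14 of the 20 animals, with r from 0.48 without ethanol animal 1 to 0.66 among these 14 and an adjusted p of up to 0.301. In the fit over the whole table the Dusp5 probe set had a limma adjusted p of 0.0870 with Dusp1.

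The remaining pairs did not pass. Dusp5 and Dusp7 had r = -0.46 (permutation p = 0.0468, adjusted 0.351), with -0.41 among ethanol animals and -0.53 among water animals. Dusp5 and Dusp6 had r = 0.41 (adjusted p = 0.400). Dusp1 and Dusp6 had r = 0.30 (adjusted p = 0.475), with 0.51 among ethanol animals and -0.03 among water animals, though each went with immediate early genes. The Dusp6 probe set 1387024_at gave higher values, r = 0.60 with Dusp1 (limma adjusted p = 0.134) and 0.63 with Dusp5 (limma adjusted p = 0.119), neither of which passed over the whole table. Dusp6 and Dusp7, close relatives in sequence, had r = -0.10. The 3 probe sets of Dusp6 show how far a gene can differ from itself here. Among ethanol animals they correlated at 0.84 to 0.90, and among water animals at 0.91 for 1 pair and at 0.20 and -0.16 for the others.

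**Figure D3:**
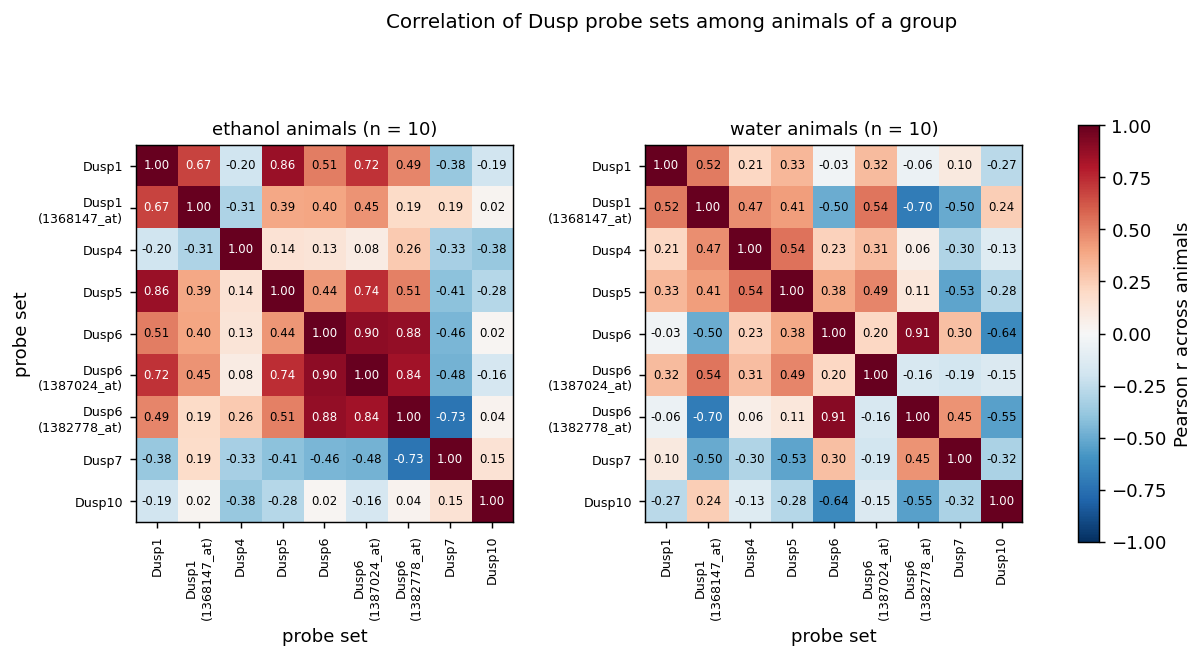
Pearson's r between the 9 Dusp probe sets among 10 ethanol animals (left) and 10 water animals (right), with red for positive and blue for negative values. Dusp1 and Dusp5 stand at 0.86 in the ethanol panel and 0.33 in the water panel, and the Dusp6 probe sets form a block in the ethanol panel that is incomplete in the water panel.

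Dusp5 had 43 probe sets called over the whole table, 0.231%, and 41 were positive (0.22%). Its nearest genes were Rhebl1, a small GTPase related to Rheb (r = 0.87), Dtnb, a dystrobrevin (r = 0.86), and Echdc2, a mitochondrial enoyl-CoA hydratase family gene (r = 0.85), each with a limma adjusted p of 0.0140. Among ethanol animals these r were 0.86, 0.90 and 0.93, and among water animals 0.93, 0.81 and 0.83. Of the ETS and serum response factor list 2 of 7 genes passed, Etv5 (r = 0.78, limma adjusted p = 0.0328) and Etv4 (r = 0.74, limma adjusted p = 0.0491), which encode ETS factors that ERK signalling induces. Of the 16 immediate early genes 0 passed with Dusp5, at a median r of 0.41 beside 0.0048 over all probe sets. They ran from r = -0.01 for Ier2 to 0.73 for Egr1, with Arc and Junb at 0.67 each. A lower r passed with Dusp6, such as 0.59 for Fos. The p-values were adjusted for each Dusp gene apart, so the r needed to pass differed, and counts of calls do not rank the Dusp genes. The total was 0 when ethanol animal 1 was left out, without water animal 13 or 17 it was 10, and without ethanol animal 3 it was 132. It moved by over 1.5 times without 16 of the 20 animals. With the myelin mean as a covariate it was also 0.

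Dusp6 had 2721 of 18624 probe sets called, 14.6%, more than any other member, of which 1329 were positive (7.14%) and 1392 negative. Its nearest genes were the RNA-binding protein gene Celf1 (r = 0.89, limma adjusted p = 0.00177), Rasgef1a, an exchange factor gene for Ras family GTPases (r = 0.88, limma adjusted p = 0.00177), and the activity-regulated transcription factor gene Mef2a (r = 0.86, limma adjusted p = 0.00273). For these genes the other probe sets of Dusp6 gave lower values. With 1387024_at r was 0.50 for Celf1, 0.77 for Rasgef1a and 0.68 for Mef2a, with 0.83, 0.94 and 0.91 among ethanol animals and 0.05, 0.37 and 0.24 among water animals. With 1382778_at it was 0.81, 0.69 and 0.74. Within the first run the main probe set gave r = 0.97 for Celf1, 0.865 for Rasgef1a and 0.95 for Mef2a (n = 8). Within the second run these were lower, at 0.27, 0.53 and 0.16 (n = 8). Of the 16 immediate early genes 9 passed with the main probe set with a positive r and Ier3 with a negative one (-0.57), and the strongest were Homer1, a scaffold of glutamate receptors (0.76), and Jun (0.70). Jun and Homer1 were not among those called with Dusp1. Nr4a1 and Junb, called with Dusp1, were not called with the main probe set of Dusp6 (r = 0.37 and 0.52). With 1387024_at r was 0.59 for Nr4a1 and 0.74 for Junb, and with 1382778_at it was 0.24 and 0.31. These other probe sets were not fitted over the whole table. The difference between the genes called with Dusp1 and those called with Dusp6 was not tested. Srf, which encodes serum response factor, and Elk1, its ERK-activated partner, passed too (r = 0.72 and 0.66). Of 12 other dual-specificity phosphatases 5 passed with Dusp6, with a positive r for Dusp8 and Dusp14 (0.62 each) and a negative one for Dusp15 (-0.68), Dusp3 (-0.65) and Dusp19 (-0.64). Of 6 other MAP kinase phosphatases Ptprr had r = 0.56 and Ppm1a r = -0.60, and of the ERK cascade Rasa1, a GTPase-activating protein for Ras, had r = 0.76.

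Cell type markers moved with Dusp6 as well. All 11 myelin markers were called with a negative r, from -0.62 for Cldn11 to -0.73 for Opalin. Of 6 cortical markers tested Slc17a7, Neurod6 and Neurod2 were called with a positive r, from 0.65 to 0.69, and Lmo3, Mef2c and Cckbr were not called. Of 9 microglial markers Aif1 was called (r = -0.67), and of 6 meningeal markers Lum was called (r = -0.62). The Dusp6 value of an animal correlated at r = -0.69 with its myelin mean and at 0.70 with its cortical mean. For 1387024_at these were -0.39 and 0.54, and for 1382778_at -0.70 and 0.50. With the myelin mean as a covariate 0 probe sets and 0 immediate early genes remained called, and r with Celf1 was 0.79 (limma adjusted p = 0.358). With the striatal and cortical means 580 probe sets and 0 immediate early genes were called. Without ethanol animal 1 there were 1172 probe sets and 3 immediate early genes, without water animal 15 there were 1569 probe sets and without water animal 17 there were 1804.

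Dusp7 ran the other way with respect to myelin. It had 73 probe sets called, 0.392%, of which 65 were positive, and its nearest genes were Smad7, an inhibitor of TGF-beta signalling (r = 0.87, limma adjusted p = 0.00710), the zinc finger gene Zkscan3 (r = 0.85, limma adjusted p = 0.0260) and Tbc1d12, a gene of the Rab GTPase regulators (r = 0.83, limma adjusted p = 0.0196). Its r with the myelin mean was 0.61, with the astrocyte mean 0.59 and with the central amygdala mean -0.51. Of the 7 pathway lists, 0 genes were called with Dusp7, and the median r of the immediate early list was -0.17. The count of called probe sets moved by over 1.5 times without 19 of the 20 animals, from 1 without ethanol animal 3 to 956 without water animal 15, and was 884 with the myelin mean as a covariate. Leaving out single animals lost the call of Smad7 once, with r between 0.83 and 0.90.

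**Figure D4:**
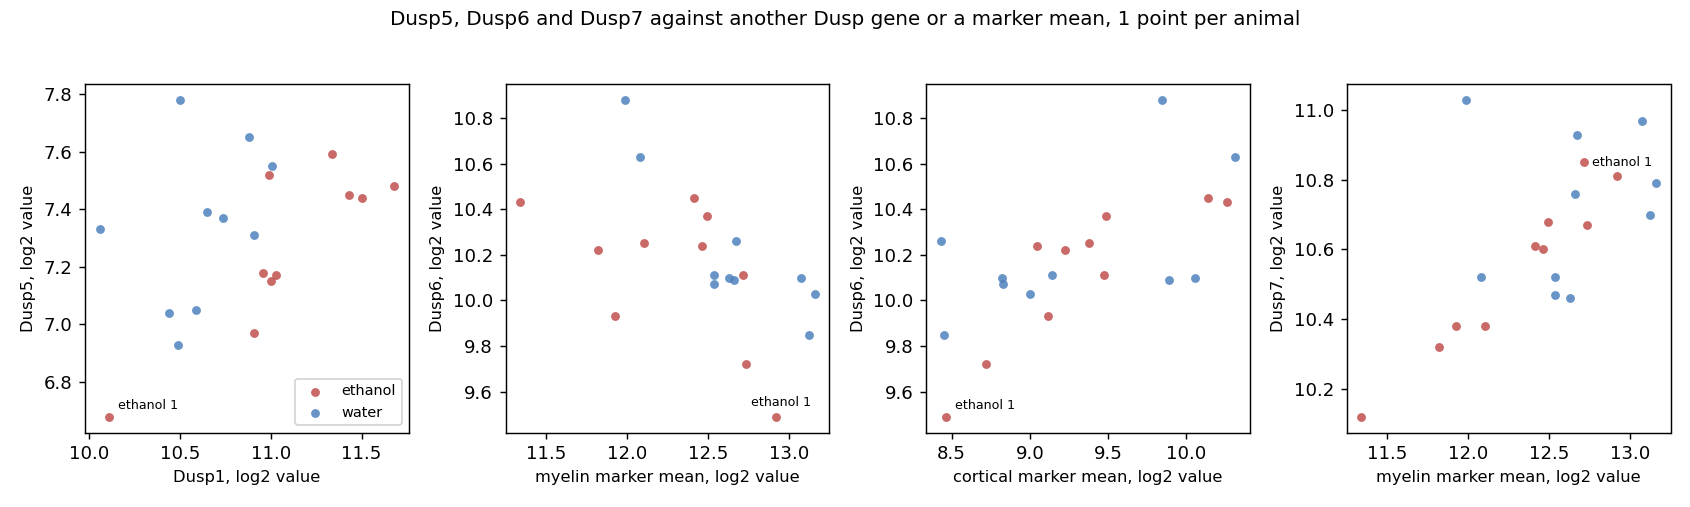
Dusp5 against Dusp1, Dusp6 against the myelin and the cortical marker means, and Dusp7 against the myelin marker mean, as log2 values, 1 point per animal, ethanol in red and water in blue. Dusp6 is lower and Dusp7 higher in animals with more myelin marker signal (r = -0.69 and 0.61), and ethanol animal 1, labelled, is lowest for Dusp1 within its group and for Dusp5 and Dusp6 over all animals.

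Dusp4 and Dusp10, whose probe sets were dim, had 0 probe sets called by limma at the adjusted threshold, with 935 (5.02%) and 745 (4.0%) at an unadjusted p under 0.05. The nearest genes were Cnnm4 for Dusp4 (r = 0.81, limma adjusted p = 0.975) and Dr1 for Dusp10 (r = 0.69, limma adjusted p = 0.991). Next for Dusp4 came Zfp746 and Eps15l1 (r = 0.70 each, limma adjusted p = 0.975 each). For Dusp10 they were Cdc73 (r = 0.66) and Shisa4 (r = 0.64), each with a limma adjusted p of 0.991. The median r of the immediate early list was -0.09 for Dusp4 and -0.01 for Dusp10. No relation of these genes with others passed the adjusted threshold, and the part of their dim signal in this was not tested.

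**Figure D5:**
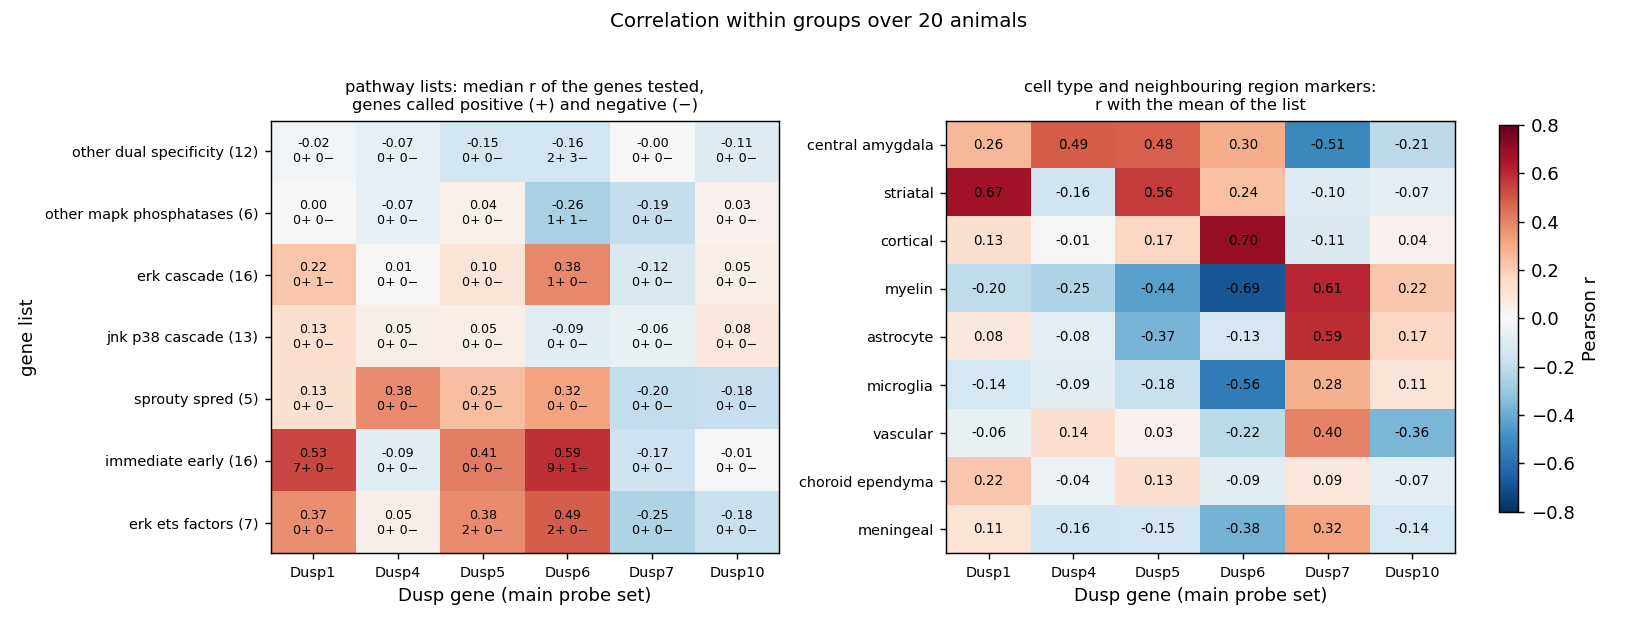
Left, median Pearson r of each pathway list (rows, with the number of genes tested) with each Dusp gene (columns), and under it the number of genes called with a positive (+) and a negative (−) r. Right, r of each Dusp gene with the mean of each marker list. The immediate early row is darkest under Dusp1 (0.53, 7 positive calls) and Dusp6 (0.59, 9 positive and 1 negative), and the myelin row has opposite signs under Dusp6 and Dusp7.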

How the data were processed

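RNA of 20 animals was hybridised to Affymetrix rat arrays. RNA extraction used Trizol and then RNeasy, and labelling used biotin and the Affymetrix 3' IVT Express kit, per the labels' protocols. The values are log2 summaries per probe set, deposited as the authors made them with RMA (robust multi-array average), per the submitters' processing notes, without a version in the sources at hand. The values ran from 3.82 to 16.16, from which the log base was taken.

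The table held 31099 probe sets, of which 57 were controls, 20826 had 1 gene symbol, 436 had several and 9780 had none. Groups came from the labels, which number each animal once. Probe sets with a mean above the 40th percentile were tested with limma 3.58.1 in R 4.3.3 (lmFit and eBayes, two-sided, Benjamini-Hochberg over all probe sets, threshold 0.05). The fit for covariation had the group and the main probe set of a Dusp gene as terms, and was checked on simulated data. The simulated probe sets varied independently apart from planted relations. The check therefore does not cover variation shared by many probe sets or a single outlying animal. Pairs of Dusp genes were tested by two-sided permutation within groups with 100000 resamples. A list is described by counts and by the mean of its members in an animal, with 1 probe set per gene. Promoters are from RefSeq, GRCr8. Other tools were matplotlib 3.10.9, scipy 1.17.1, pandas 2.3.3 and numpy 2.4.6 in Python 3.11.15.

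The Dusp genes and the gene lists were chosen with earlier results of these data known. Genes named are the 6 Dusp genes, the 3 nearest by r to each, from each list those called or else the 2 with the smallest p, and Fos, Egr1, Nr4a1, Arc, Spry2 and Ptpn5. Other genes named from the immediate early, marker and promoter counts were chosen after their values were seen. The alternatives were median centring, cyclic loess, array quality weights, trend and robust settings, no filter or one at the 60th percentile, the run as a block, marker means as covariates, Spearman's rho, and leaving out animals.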

Additional observations from a re-analysis of the deposited data

Results flagged for a closer look

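In groups of 10 animals the value farthest out was set against the spread of the others by Dixon's test, over 18 groups (9 probe sets in each treatment), of which chance flags about 1 in 20. In the main probe set of Dusp1 the lowest ethanol animal, animal 1, was at a log2 value of 10.11, beyond the critical gap. In the Dusp6 probe set 1382778_at the highest water animal, animal 15, was at 9.78, also beyond it. The array of water animal 15 stood apart in its mean correlation, and that of ethanol animal 1 did not.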

How the results depend on the processing

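The difference of Dusp1 between ethanol and water ran from 0.33 with the striatal and cortical means to 0.61 with array quality weights. Other differences moved by less than 1 SD between animals but by large factors. With the myelin mean Dusp5 was at -0.17, Dusp6 at -0.26 and Dusp7 at -0.06, with array quality weights Dusp6 turned to 0.06, Dusp7 was at -0.08 and Dusp10 turned to -0.0068, and without the 3 arrays that stand apart Dusp6 was at -0.0096 and Dusp7 at -0.11. Leaving out single animals moved them from 0.40 to 0.58 for Dusp1, 0.07 to 0.15 for Dusp4, -0.12 to -0.01 for Dusp5, -0.13 to -0.02 for Dusp6, -0.21 to -0.13 for Dusp7 and 0.0029 to 0.062 for Dusp10. The 4 calls over all probe sets became 23 with array quality weights, 0 with the myelin mean, 1 with the striatal and cortical means, 2 with the 60th percentile and 1 to 8 without single animals, and the pathway lists had 0 throughout. The 1 pair of Dusp genes called became 0 with the striatal and cortical means, the immediate early mean, without the 3 arrays that stand apart, by Spearman's rho and without the 2 farthest animals, 2 with the myelin mean, and 0 to 1 without single animals. Dusp1 with Dusp6 turned to r = -0.40 with the immediate early mean and ran from -0.063, without ethanol animal 1, to 0.39 without single animals. The 89 probe sets called with Dusp1 became 196 with loess, 188 with the run, 6 with the striatal and cortical means, 20 without the 3 arrays, 57 with no filter, 157 with the 60th percentile and 0 to 382 without single animals. The 43 with Dusp5 became 67 with the run, 4 with the striatal and cortical means, 0 with the myelin or the immediate early mean, 78 without the 3 arrays, 21 with no filter, 67 with the 60th percentile and 0 to 132 without single animals. The 2721 with Dusp6 became 580 with the striatal and cortical means, 0 with the myelin mean, 335 with the immediate early mean and 1172 to 3240 without single animals. The 73 with Dusp7 became 13 with centring, 135 with loess, 161 with the run, 318 with the striatal and cortical means, 884 with the myelin mean, 29 with the immediate early mean, 1039 without the 3 arrays, 20 with no filter, 113 with the 60th percentile and 1 to 956 without single animals. Dusp4 and Dusp10 stayed at 0 without single animals. The 7 immediate early genes called with Dusp1 became 2 with the striatal and cortical means and 0 to 7 without single animals, and the 9 with Dusp6 became 0 with those means, 0 with the myelin mean and 3 to 10 without single animals. The cause was not tested. No paired analysis was possible because no animal number occurs in both groups. The signal of Dusp4, Dusp10 and the second Dusp1 probe set, all dim, may limit what could be detected, which was not tested.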
